A study of Mus musculus with 9 samples.

Results

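Smooth muscle contractile genes were followed in RNA of mouse colonic mucosa on Agilent 1-colour microarrays. The list holds 36 genes of the contractile apparatus of smooth muscle, its anchors and its receptors, chosen by symbol. A probe was named for 35 of them, all but Synpo2, and 33 passed the filter on dim probes, among 21095 genes and unnamed features tested. All 9 samples came from ICR mice, an outbred stock, and were labelled normal mucosa. Each group had been given the colon carcinogen 1,2-dimethylhydrazine (DMH) weekly under the skin for 20 weeks, at 20 mg/kg. The group hCA-Notumor (3 arrays) ate a diet with 3% calcium and had no tumors. The group hCA-Tumor (3 arrays) ate the same diet and had tumors. The group DMH (3 arrays) ate a diet with 1.24% calcium, and its tumor status is labelled only as control. No group went without the carcinogen, and the sources used here give no age or sex. The labels do not tie the arrays of a group to separate mice, so p-values measure only array-to-array spread, which may be technical.

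Smooth muscle shortens when calcium and calmodulin switch on myosin light chain kinase, the kinase phosphorylates the regulatory light chain, and the myosin heads then pull on actin filaments. Myosin phosphatase reverses the step. The filaments are tied to dense bodies and to the plasma membrane by intermediate filaments, LIM domain proteins and integrins. In the colon this machinery fills the muscularis propria, while the mucosa holds only the thin muscularis mucosae, the muscle walls of small vessels and scattered myofibroblasts. The list can thus be read as a gauge of how much muscle a mucosal sample carried. In such bulk samples, fewer cells of a type and less RNA per cell cannot be told apart.

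Many smooth muscle genes are switched on by serum response factor (SRF), which binds the CArG box, a run of 10 bases with C pairs in front, G pairs behind and 6 A or T bases between, and by its coactivator myocardin, the product of the member Myocd. The 250 bases before the transcription start of 30 members were searched on both strands in the RefSeq promoters of build GRCm38.p6. Full boxes stood in 3 of these genes (10%), Dmd, Ldb3 and Myl9, against 1.62% of all genes in the table. Boxes with at most 1 G or C among the central 6 bases stood in 8 (26.7%), namely those 3 and Acta2, Hspb6, Jph2, Pdlim3 and Synm, against 9.78% of all genes. The 4 stretches below show the boxes, in capitals, of the smooth muscle actin gene, the myosin light chain gene, and 2 members whose signals did not follow the same groups, Dmd and Ldb3. They lie at chr19:34255386-34255469 (minus strand), chr2:156775291-156775386 (plus), chrX:82948760-82948793 (plus) and chr14:34588695-34588728 (minus).
Acta2: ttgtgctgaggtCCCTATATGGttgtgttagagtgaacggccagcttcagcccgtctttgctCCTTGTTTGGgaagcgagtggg
Myl9: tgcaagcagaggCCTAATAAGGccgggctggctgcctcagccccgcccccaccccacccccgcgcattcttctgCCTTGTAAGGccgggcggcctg
Dmd: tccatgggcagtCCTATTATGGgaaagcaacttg
Ldb3: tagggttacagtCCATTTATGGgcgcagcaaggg
Both boxes of Acta2 and the second of Myl9 carry a single G or C in the centre. A match is a description of letters, and no binding was measured here.

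Values below are scaled log2 signals, meaning log2 of the processed probe signal minus the array's 75th percentile, so that 0 is the 75th percentile and 1 unit is a factor of 2. On the 9 arrays 61.1 to 73.8% of 41174 probes were well above background, and 0 spots were saturated. Of 12 colonic epithelium markers, 11 had a named probe and were measured, and Lgals4, an epithelial galectin, lay between 8.38 and 8.86 on every array. These markers show epithelium in the samples and cannot show that the deeper wall was left out. Arrays lay on 3 slides. Slide 1 held all 3 hCA-Notumor arrays and DMH replicate 1, slide 2 held hCA-Tumor replicates 1 and 2 with DMH replicates 2 and 3, and slide 3 held hCA-Tumor replicate 3 alone. Because the DMH group was split between slides, the fit was repeated with the slide as a block. In that fit hCA-Notumor is set against DMH replicate 1 alone, the only DMH array on slide 1, and hCA-Tumor replicates 1 and 2 against DMH replicates 2 and 3, while hCA-Tumor replicate 3 adds nothing to the difference. The spread comes from arrays of a group that shared a slide, so DMH replicate 1 is assumed to vary like the others. Values with the block are given where they end a call or change its size by much.

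The smooth muscle genes ran lowest in DMH, higher in hCA-Notumor and highest in hCA-Tumor. Summed over the 33 genes, the scaled signal (in units of the 75th percentile) was 382 to 634 on the DMH arrays, 674 to 837 on the hCA-Notumor arrays and 920 to 1200 on the hCA-Tumor arrays, so that the sums of the groups did not overlap. The brightest genes, Acta2, Tagln, Cnn1, Myl9 and Flna, weigh most in these sums. The median deviation of the genes from their own means was 0.03, 0.25 and -0.05 on the hCA-Notumor arrays. It was 0.29, 0.61 and 0.52 with tumors and -0.25, -0.61 and -0.73 in DMH. Arrays within a group differed as well, in the same way for most members. Replicate 2 of hCA-Notumor was the highest of its group in 28 of 33 members (30% of all features), replicate 2 of hCA-Tumor in 23 (26%) and DMH replicate 1 in 29 (56.1%).

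**Figure D1:**
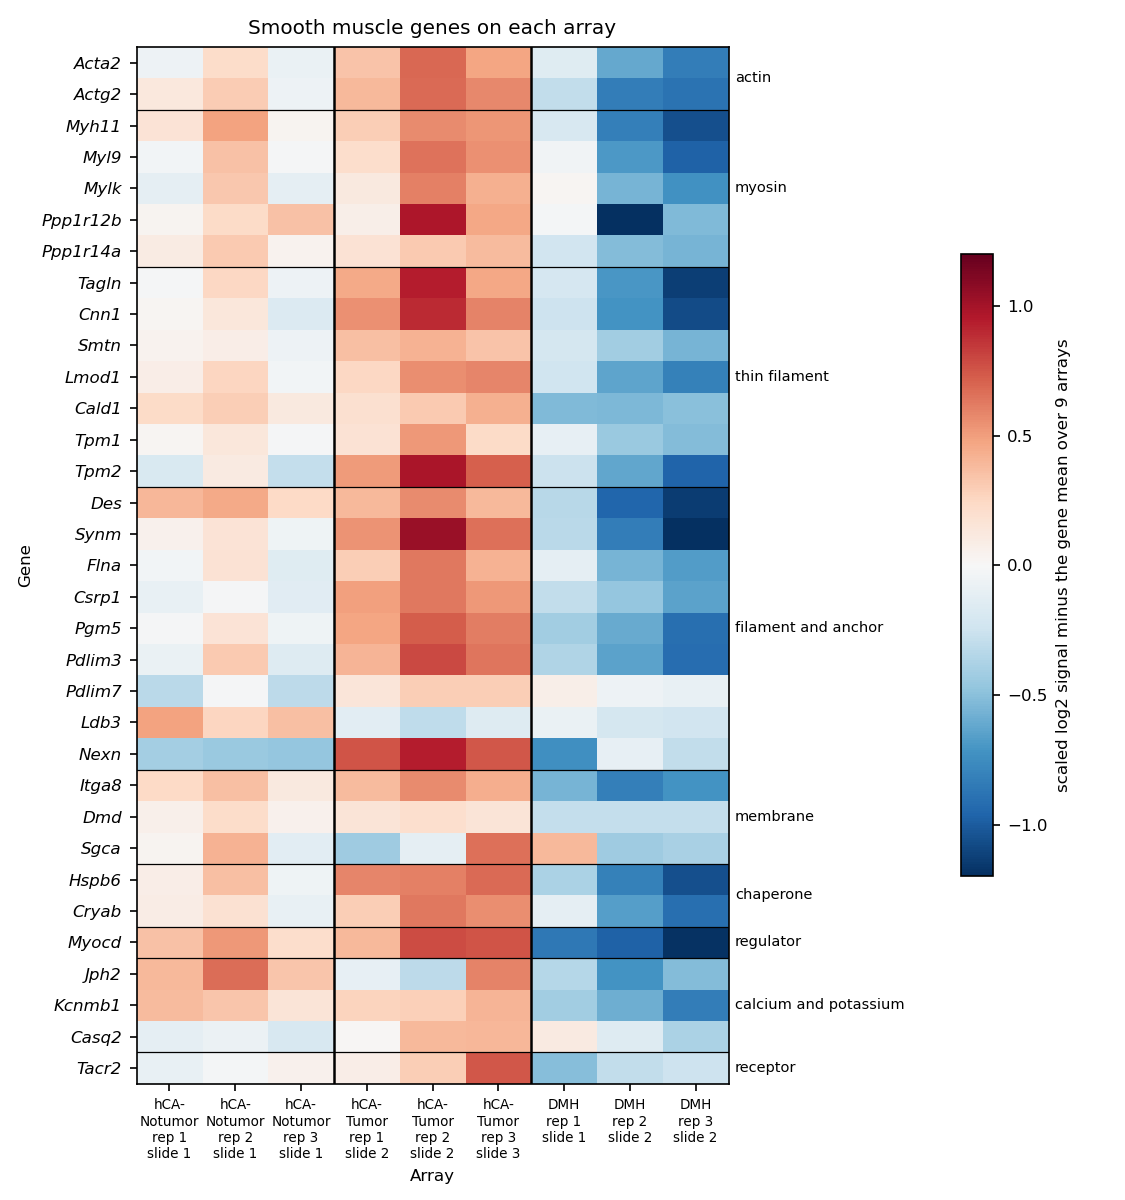
Scaled log2 signal of 33 smooth muscle genes (rows, by role) on 9 arrays (columns, with group, replicate and slide), as the difference from each gene's mean over the arrays; red is higher and blue lower, and values past the ends of the scale take the end colour. Most rows are bluest on DMH replicates 2 and 3 and reddest on the hCA-Tumor arrays, while Ldb3, Nexn, Pdlim7, Sgca and Casq2 break the pattern.

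DMH replicate 1, which shared slide 1 with the hCA-Notumor arrays, stood apart from the other DMH arrays. It exceeded the mean of DMH replicates 2 and 3 by a median of 0.41 over the members (range -0.53 to 1.02), against 0.07 over all features. The hCA-Notumor mean exceeded DMH replicate 1 by a median of 0.34 (range -0.29 to 1.22), against 0.02 over all features. How much of this array's position belongs to the slide and how much to the sample cannot be told apart.

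Both actins of the list, which form the thin filaments, followed the group order. Signals of Acta2, vascular and myofibroblast smooth muscle actin, were 7.19, 7.48 and 7.18 in hCA-Notumor, 7.6, 7.94 and 7.73 in hCA-Tumor and 7.11, 6.64 and 6.43 in DMH. No array of a group overlapped another group, although DMH replicate 1 lay only just under the hCA-Notumor arrays. The difference from DMH was 0.56 ± 0.18 (SE, n = 3 arrays per group) in hCA-Notumor, which missed the threshold (adjusted p = 0.051), and 1.03 ± 0.18 in hCA-Tumor (adjusted p = 0.00441). In a fit over all kept probes, without a slide term, this probe just passed without tumors (adjusted p = 0.0487). There a second Acta2 probe passed without tumors (0.59, adjusted p = 0.00208) and another did not (0.43, adjusted p = 0.0853). Actg2, the enteric smooth muscle actin, had signals of 5.19, 5.37 and 5.01, then 5.46, 5.75 and 5.64, then 4.77, 4.24 and 4.18 in the same order of groups. It was higher than in DMH by 0.79 ± 0.17 without tumors (adjusted p = 0.0109) and by 1.22 ± 0.17 with tumors (adjusted p = 0.00169). The block brought the differences of Acta2 and Actg2 without tumors to 0.17 and 0.42, and that of Actg2 no longer passed (adjusted p = 0.118). The actin genes are close relatives and probe sequences were not used here, so signal shared between their probes was not tested.

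Myosin and its regulators moved with the actins. Myh11, the smooth muscle myosin heavy chain, gave 3.88, 4.2 and 3.75 in hCA-Notumor, 4.01, 4.28 and 4.24 in hCA-Tumor and 3.52, 2.89 and 2.66 in DMH. The high calcium arrays overlapped each other and lay above every DMH array. It was 1.89-fold higher without tumors (0.92 ± 0.22, adjusted p = 0.0171) and 2.22-fold higher with tumors (1.15 ± 0.22, adjusted p = 0.00635). Its difference without tumors was 0.42 with the block and did not pass (adjusted p = 0.186). Myl9, the regulatory light chain, and Mylk, the kinase that phosphorylates it, passed with tumors only (1.03 ± 0.25 and 0.81 ± 0.23, adjusted p = 0.0141 and 0.0281). Their differences without tumors were 0.67 and 0.46, which the block reduced to 0.14 and 0.01. Ppp1r14a, the inhibitor of myosin phosphatase known as CPI-17, rose by 0.59 ± 0.11 and 0.72 ± 0.11 (adjusted p = 0.00664 and 0.00254), and its rise without tumors was 0.38 with the block (adjusted p = 0.0658). Ppp1r12b, a targeting subunit of the phosphatase, had 0 DMH arrays well above background, and so only a bound. The bound took, on each DMH array, the higher of the lowest signal well above background and its own signal. Against it, the mean of Ppp1r12b over 3 arrays was at least 1.3-fold higher without tumors (2 of 3 arrays above background) and at least 1.6-fold higher with tumors. It passed the filter only through the hCA-Tumor arrays. The fit on its measured signals gave adjusted p = 0.11 and 0.0459, which do not test the bounds. With normexp background correction its difference with tumors was 0.22 (adjusted p = 0.505).

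The proteins that ride on the thin filament rose with tumors. Tagln, the actin bundler transgelin, rose by 1.3 ± 0.24 with tumors (adjusted p = 0.00545) and differed by 0.74 ± 0.24 without them (adjusted p = 0.0506). In the fit over all kept probes the brightest Tagln probe just passed without tumors (adjusted p = 0.0483), as did a second probe (0.85, adjusted p = 0.00778). Cnn1, the actin-binding protein calponin, rose by 0.68 ± 0.2 and 1.36 ± 0.2 (adjusted p = 0.0365 and 0.0021). Smtn, smoothelin of contractile smooth muscle, rose by 0.42 ± 0.09 and 0.77 ± 0.09, and Lmod1, the actin nucleator leiomodin, by 0.66 ± 0.17 and 1.03 ± 0.17 (adjusted p of 0.0188 or less). The differences without tumors with the block were 0.26 for Tagln, 0.26 for Cnn1, 0.24 for Smtn and 0.34 for Lmod1, and none of these 4 passed (adjusted p = 0.496, 0.398, 0.0999 and 0.191). Cald1, caldesmon, which restrains myosin binding to actin, had a different shape. Its signals were -0.98, -0.91 and -1.09, then -1.01, -0.89 and -0.78, against -1.74, -1.75 and -1.71 in DMH. DMH replicate 1 lay with its group here, and the rises of 0.74 ± 0.07 and 0.84 ± 0.07 (adjusted p = 0.000313 and 0.000289) were 0.75 and 0.78 with the slide as a block. Of the tropomyosins, which lie along the actin filament, Tpm1 passed with tumors (0.66 ± 0.13, adjusted p = 0.00733) and missed without them (0.4 ± 0.13, adjusted p = 0.0506). In the fit over all kept probes the brightest Tpm1 probe just passed without tumors (adjusted p = 0.0485), as did a second probe (0.54, adjusted p = 0.00637). Signals of Tpm2 were 4.26, 4.55 and 4.16 in hCA-Notumor, 4.95, 5.42 and 5.16 in hCA-Tumor and 4.19, 3.82 and 3.48 in DMH. The arrays with tumors stood clear of all others, while those without overlapped DMH replicate 1. Tpm2 was 2.54-fold higher with tumors (1.35 ± 0.2, adjusted p = 0.00222) and differed by 0.49 ± 0.2 without (adjusted p = 0.1). The differences of Tpm1 and Tpm2 without tumors were 0.15 and 0.13 with the block.

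**Figure D2:**
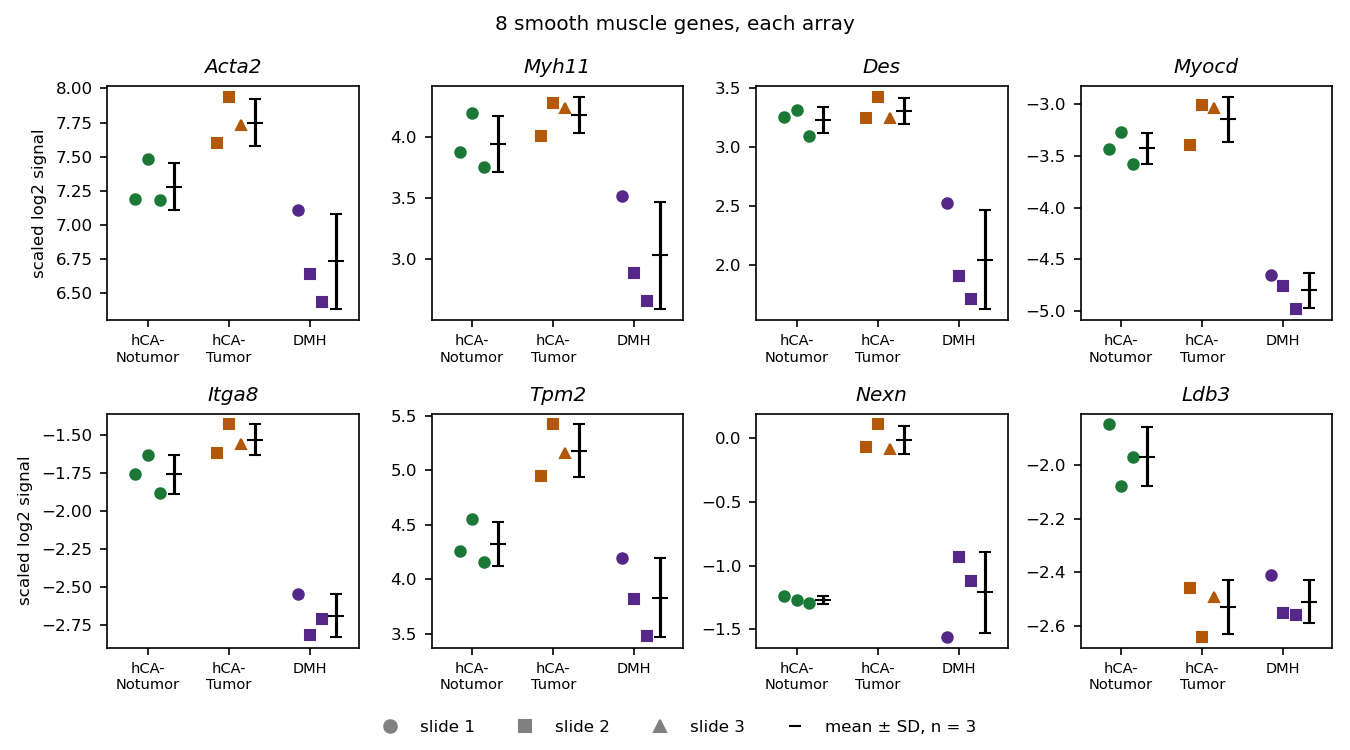
Scaled log2 signal of 8 smooth muscle genes on each array, by group; marker shape gives the slide, and the bar is the mean ± SD of 3 arrays. Des, Myocd and Itga8 are at about the same height in both high calcium groups, Tpm2 and Nexn are high with tumors, and Ldb3 is high without tumors.

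Intermediate filaments and the anchors of the contractile net were the most varied. Des, the intermediate filament desmin, had signals of 3.26, 3.32 and 3.1 without tumors, 3.25, 3.43 and 3.25 with tumors and 2.53, 1.91 and 1.72 in DMH. The high calcium groups overlapped and every DMH array lay below them. Des rose 2.25-fold and 2.39-fold (1.17 ± 0.19 and 1.26 ± 0.19, adjusted p = 0.00334 and 0.00238), and 0.7 and 1.53 on the log2 scale with the slide as a block. Synm, synemin, which links desmin to the membrane, rose by 0.85 ± 0.23 and 1.55 ± 0.23 (adjusted p = 0.0245 and 0.00203). A second Synm probe also put both groups above DMH (1.8 and 1.21) but hCA-Notumor above hCA-Tumor, where the brightest probe had the reverse. Flna, the actin cross-linker filamin A, rose with tumors (0.89 ± 0.16, adjusted p = 0.00477) and differed by 0.45 ± 0.16 without (adjusted p = 0.0691). A second Flna probe passed without tumors in the fit over all kept probes (0.72, adjusted p = 0.0256), and another did not (0.67, adjusted p = 0.204). Csrp1 and Pdlim3, LIM proteins of actin bundles and actinin-rich anchors, and Pgm5, aciculin of adhesion sites, rose in both groups, by 0.39, 0.67 and 0.67 without tumors and by 1.02, 1.26 and 1.25 with tumors (adjusted p of 0.0253 or less). In the fit with the block the rises without tumors were 0.38 for Synm, 0.22 for Csrp1, 0.4 for Pdlim3 and 0.45 for Pgm5, none of which passed (adjusted p = 0.281, 0.163, 0.276 and 0.0977), and that of Flna was 0.11.

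Nexn, Ldb3 and Pdlim7, also anchors, departed from the rest. Nexn, the actin-binding protein nexilin, had signals of -1.24, -1.27 and -1.29 in hCA-Notumor, -0.07, 0.11 and -0.08 in hCA-Tumor and -1.56, -0.93 and -1.12 in DMH. It rose 2.29-fold with tumors (1.19 ± 0.15, adjusted p = 0.000974) and differed by -0.06 ± 0.15 without (adjusted p = 0.748). Ldb3, the Z-disc protein cypher, went the other way, with -1.85, -2.08 and -1.97 without tumors, -2.46, -2.64 and -2.49 with tumors and -2.41, -2.55 and -2.56 in DMH. Its arrays without tumors lay above all others (0.54 ± 0.08 over DMH, adjusted p = 0.00215), and its difference with tumors was -0.03 ± 0.08 (adjusted p = 0.847). A second Ldb3 probe gave 0.49 and -0.39 for the same differences, and another gave 0.07 and -0.43. Pdlim7, enigma, passed against DMH in neither group (-0.2 ± 0.1 and 0.27 ± 0.1, adjusted p = 0.157 and 0.0674).

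At the membrane, Itga8, the integrin alpha 8 chain of smooth muscle and myofibroblasts, had signals of -1.76, -1.63 and -1.88, then -1.62, -1.43 and -1.56, against -2.55, -2.82 and -2.71 in DMH. The DMH arrays lay together, well below the others, and DMH replicate 1 was among them. Itga8 rose 1.92-fold and 2.24-fold (0.94 ± 0.1 and 1.16 ± 0.1, adjusted p = 0.000387 and 0.00025). Dmd, dystrophin, which ties actin to the matrix receptor complex, was at -1.33 on each DMH array and between -0.99 and -0.82 on the other 6. Those small rises passed (0.4 ± 0.06 and 0.46 ± 0.06, adjusted p = 0.00148 and 0.000883). Sgca, a sarcoglycan of striated muscle, scattered within its groups (SD of 0.28 to 0.56) and passed in neither (0.25 ± 0.33 and 0.19 ± 0.33, adjusted p = 0.561 and 0.718). Of the small heat shock proteins of muscle, Hspb6 rose by 0.88 ± 0.17 and 1.38 ± 0.17 (adjusted p = 0.00734 and 0.00104) and Cryab by 0.62 ± 0.2 and 1.05 ± 0.2 (adjusted p = 0.0476 and 0.00576). With the block their differences without tumors were 0.51 and 0.17 and did not pass (adjusted p = 0.0769 and 0.522).

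Myocd, the coactivator of SRF, had the largest differences from DMH of all tested members in both comparisons without a slide term. Its signals were -3.44, -3.27 and -3.58 without tumors, -3.4, -3.01 and -3.04 with tumors and -4.65, -4.76 and -4.98 in DMH. It rose 2.59-fold and 3.14-fold (1.37 ± 0.14 and 1.65 ± 0.14, adjusted p = 0.000348 and 0.000257), or by 1.22 and 1.67 with the slide as a block. These values lie far below the 75th percentile, and with normexp background correction the differences were 0.5 without tumors (adjusted p = 0.101) and 0.63 with tumors (adjusted p = 0.0484). A second Myocd probe differed by 0.78 without tumors and by -0.03 with tumors, where it spread from -5.4 to -2.86, and with the mean of both probes the rise with tumors did not pass (0.81, adjusted p = 0.101).

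Genes of calcium release and potassium current were less uniform. Kcnmb1, the beta subunit of the large-conductance potassium channel that relaxes smooth muscle, rose by 0.9 ± 0.11 and 0.93 ± 0.11 (adjusted p = 0.000963 and 0.000915). With normexp correction these were 0.45 and 0.46 (adjusted p = 0.0623 and 0.059). Jph2, junctophilin, which holds calcium stores against the membrane, rose without tumors (0.99 ± 0.23, adjusted p = 0.0146). With normexp correction that rise was 0.5 and did not pass (adjusted p = 0.0549). With tumors Jph2 differed by 0.59 ± 0.23 (adjusted p = 0.0858), where its signals ran from -3.56 to -2.65. Casq2, calsequestrin, the calcium buffer of the stores, passed in neither (0.02 ± 0.15 and 0.41 ± 0.15, adjusted p = 0.931 and 0.064), and its difference with tumors was 0.47 with the slide as a block (adjusted p = 0.0412).

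Receptors of enteric transmitters lay near background. Tacr2, the neurokinin receptor of gut muscle, was well above background on 8 of 9 arrays, rose with tumors (0.73 ± 0.16, adjusted p = 0.011) and differed by 0.33 ± 0.16 without (adjusted p = 0.153). With normexp correction its difference with tumors was 0.29 (adjusted p = 0.356). With the slide as a block its difference without tumors passed (0.49, adjusted p = 0.0185) and that with tumors was 0.46 (adjusted p = 0.0097). The muscarinic receptors Chrm2 and Chrm3, through which acetylcholine contracts gut muscle, did not pass the filter and were not tested. Chrm2 was well above background on 2 arrays, both hCA-Notumor, with a bound of at least 1.26-fold over DMH. Chrm3 was well above background on 2 hCA-Notumor and 2 DMH arrays and on no hCA-Tumor array. The means over all 3 arrays of those groups were at least 1.36-fold and 1.67-fold above the lowest signal well above background on the hCA-Tumor arrays.

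Against DMH, the members moved upward in mucosa of hCA-Notumor mice, which ate more calcium and had no tumors. The tumor status of DMH is labelled only as control, so diet and tumor status cannot be told apart in this comparison. Of 33 members 20 rose and 0 fell, against 18.4% of all features that rose and 17.3% that fell. The median difference was 0.66, a factor of 1.58, against 0.07 over all features, and 31 members had a positive difference. In 26 members every hCA-Notumor array lay above every DMH array, a pattern held by 33.8% of features. The exceptions were Mylk, Tpm2, Flna, Pdlim7, Sgca, Nexn and Casq2.

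The calls of this comparison were fewer with the slide as a block, which rests on DMH replicate 1 alone. The median was then 0.34 and 9 members rose (14.1% of features), namely Des, Cald1, Myocd, Itga8, Jph2, Kcnmb1, Ldb3, Dmd and Tacr2. A fit of the slide 1 arrays alone gives the same differences and is no separate evidence; with the spread taken from the 3 hCA-Notumor arrays only, 7 members rose (10.7% of features). The differences of Des, Cald1, Myocd, Itga8, Jph2 and Kcnmb1 over that single DMH array were 0.7, 0.75, 1.22, 0.79, 0.81 and 0.71 (adjusted p of 0.0187 or less in the fit with the block). Scaling the arrays to their medians in place of the 75th percentile moved the median of all features from 0.07 to -0.1 and left 8 members higher (4.94% of features) with a median of 0.49. They were Myh11, Des, Cald1, Myocd, Itga8, Jph2, Kcnmb1 and Hspb6.

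Single arrays carried some of the calls without tumors. Without DMH replicate 2 there were 13 members higher and without DMH replicate 3 there were 14, while without DMH replicate 1 there were 28. Leaving out hCA-Notumor replicate 2 gave 13 higher and 1 lower, Pdlim7 (-0.3, adjusted p = 0.0305). Of the 20 calls 13 held with each array left out in turn. The others were Myh11 (adjusted p up to 0.0606), Cnn1 (0.107), Synm (0.075), Lmod1 (0.0638), Jph2 (0.0543), Pdlim3 (0.0806) and Cryab (0.135). Each of these 7 missed the threshold without hCA-Notumor replicate 2 and also without DMH replicate 2. Des, Cald1 and Itga8 passed under every setting that was run, with adjusted p of up to 0.0287, 0.0215 and 0.026.

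**Figure D3:**
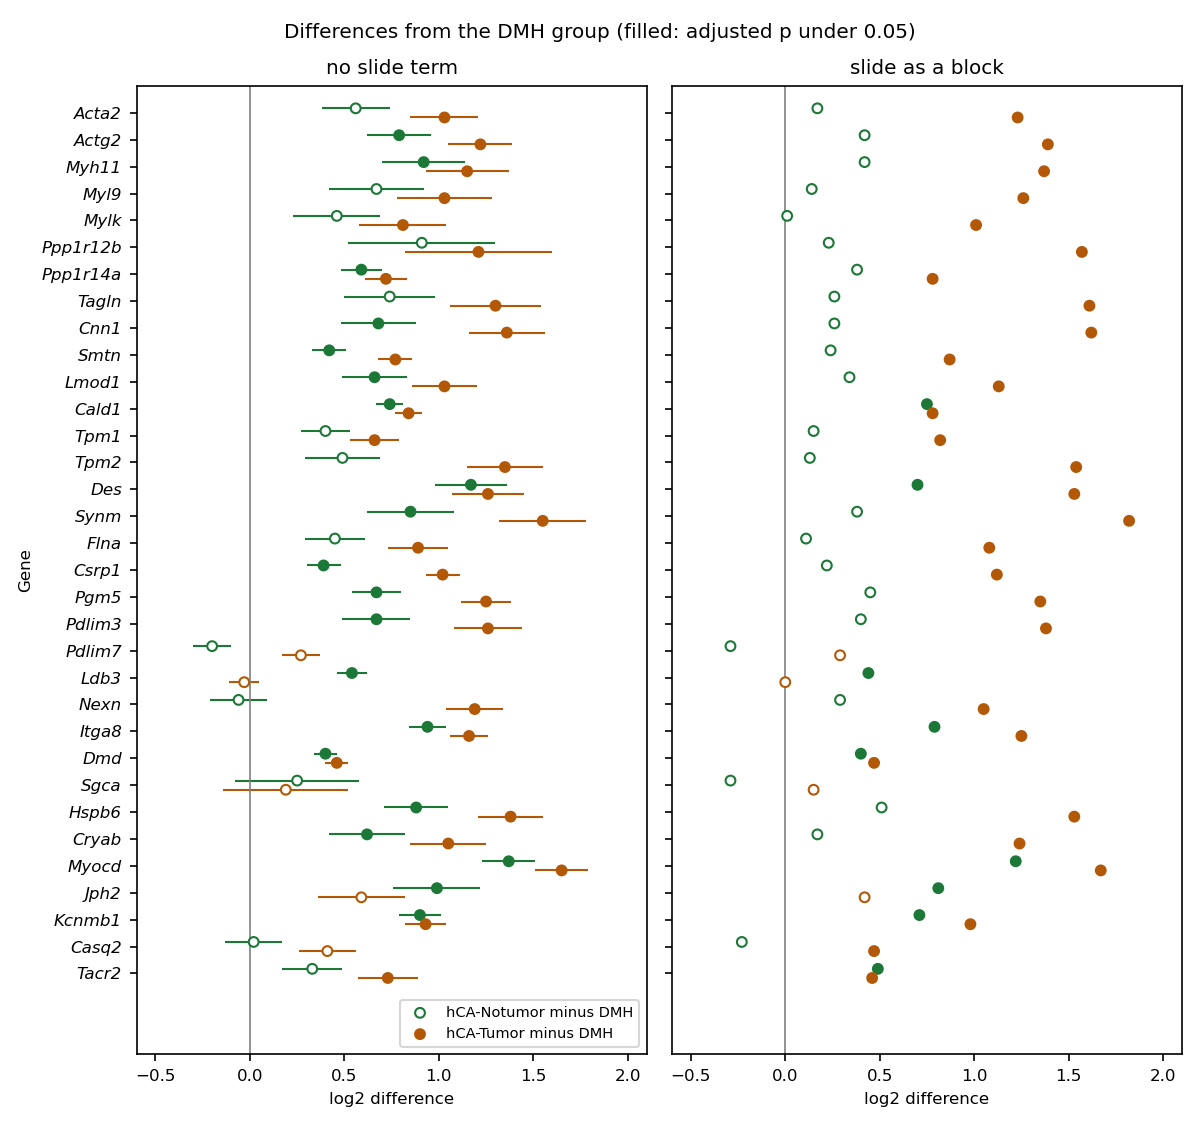
Log2 difference from DMH of 33 smooth muscle genes in hCA-Notumor (green) and hCA-Tumor (orange), without a slide term (left, bars are ± SE) and with the slide as a block (right, no error bars drawn); filled points have an adjusted p under 0.05. With the block, 9 green and 29 orange points are filled, against 20 and 28 without it.

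In hCA-Tumor mice the members stood further above DMH. Of 33 members 28 rose and 0 fell, against 21% and 15.9% of all features, and the exceptions were Jph2, Pdlim7, Ldb3, Sgca and Casq2. Ppp1r12b is counted among the 28, although it passed the filter only through the hCA-Tumor arrays and has only a bound. The median difference was 1.03, a factor of 2.04, against 0.08 over all features. Every hCA-Tumor array lay above every DMH array in 30 members (28.2% of features), all but Ldb3, Sgca and Casq2. With the slide as a block, which leaves replicates 1 and 2 against DMH replicates 2 and 3, 29 members rose (23.9% of features) with a median of 1.13. A fit of the slide 2 arrays alone gives the same differences, and 28 rose (23% of features). With median scaling 24 rose (4.32% of features), and Mylk, Tpm1, Ppp1r12b and Dmd no longer passed. Of the 28 calls 25 held with each array left out in turn. Myl9 missed without hCA-Tumor replicate 2 (0.95, adjusted p = 0.0502). Mylk missed without hCA-Tumor replicate 2 or 3 or DMH replicate 2 or 3 (adjusted p up to 0.0904). Ppp1r12b missed without any single array except DMH replicate 1 (adjusted p up to 0.137).

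Between the high calcium groups, the members were lower without tumors in part. Ldb3 was higher in hCA-Notumor than in hCA-Tumor, and 10 members were lower, Cnn1, Csrp1, Hspb6, Nexn, Pdlim3, Pdlim7, Pgm5, Smtn, Synm and Tpm2. These 10 of 33 are near the background, since 20.6% of all features were higher and 27% lower. The median was -0.37, against 0 over all features, and in 19 members every hCA-Tumor array lay above every hCA-Notumor array (33.2% of features). Nexn differed most (-1.26 ± 0.15, adjusted p = 0.000503), then Tpm2 (-0.85 ± 0.2, adjusted p = 0.0112), and Csrp1 (-0.63 ± 0.09, adjusted p = 0.00127) had the smallest adjusted p of the others that were lower. Nexn, Tpm2 and Csrp1 passed under every setting that was run, with adjusted p of up to 0.0144, 0.0415 and 0.0153. Myocd, Itga8, Cald1, Des, Kcnmb1 and Dmd did not pass, with differences of -0.28, -0.22, -0.1, -0.09, -0.03 and -0.06 (adjusted p of 0.0967 or more). No slide held both groups. The slide block linked them through the DMH arrays alone and gave 18 members lower (15.6% of features) and a median of -0.83. In that fit Des differed by -0.83 (adjusted p = 0.0187), while Cald1, Myocd, Itga8, Kcnmb1 and Dmd did not pass. Counts without 1 array ran from 6, without hCA-Notumor replicate 3, to 18, without DMH replicate 1, and were 7 without hCA-Notumor replicate 1 or hCA-Tumor replicate 2. Both comparisons with DMH share its 3 arrays.

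Taking both high calcium groups as a mean, 30 of 33 members rose and 0 fell, against 17.8% and 13.8% of all features. Pdlim7, Sgca and Casq2 did not pass, and Ppp1r12b is counted among the 30 although it has only a bound against DMH. The median was 0.83, against 0.07 over all features, and with the slide as a block 27 members rose (21.5% of features) with a median of 0.71. Myocd, Des, Synm and Hspb6 led, by 1.51 ± 0.12, 1.22 ± 0.17, 1.2 ± 0.2 and 1.13 ± 0.15. With median scaling 20 rose (3.35% of features). Leaving out DMH replicate 2 or DMH replicate 3 gave 23, as Myl9, Mylk, Tpm1, Jph2, Ppp1r12b, Ldb3 and Tacr2 then missed the threshold (adjusted p of 0.051 to 0.176).

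Several members had more than 1 usable probe, 36 probes over 15 genes. The probes of a gene had the same sign in 14 of 15 genes for hCA-Notumor against DMH (Pdlim7 differed) and in 14 for hCA-Tumor against DMH (Myocd differed). Between the high calcium groups they had the same sign in 9, and the probes of Flna, Itga8, Myocd, Pgm5, Synm and Tpm1 disagreed. With the mean of a gene's probes, the differences of Synm and Pgm5 there were -0.05 and -0.04 (adjusted p = 0.867 and 0.793).

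Genes that smooth muscle uses but shares with other cells had smaller median differences. Of 57 further genes of contraction, calcium handling, adhesion and muscle transcription, 53 were tested. Without tumors 27 rose and 3 fell (18.4% and 17.3% of all features), with tumors 24 rose and 3 fell (21% and 15.9%), and the medians were 0.3 and 0.25. With the slide as a block 18 rose and 2 fell without tumors (14.1% and 12.6% of features), a share of the list no smaller than the 9 of 33 members. The difference between the lists was not tested. The largest rises without tumors were Ryr2, the ryanodine receptor of calcium stores (1.11 ± 0.22, adjusted p = 0.00717), Popdc2, a membrane protein of muscle (0.92 ± 0.25, adjusted p = 0.0248), and Nkx2-3, a homeobox factor of gut mesenchyme (0.9 ± 0.09, adjusted p = 0.000349). Nkx2-3 kept its call with the slide as a block (0.71, adjusted p = 0.00281), and Ryr2 and Popdc2 did not (adjusted p = 0.0982 and 0.238). The largest rises with tumors were Cav1, the main protein of caveolae (1.32 ± 0.07, adjusted p = 4.22e-05), Fhl1, a LIM protein of muscle (1.32 ± 0.08, adjusted p = 7.26e-05), and Myom1, a protein of the myosin M band (1.3 ± 0.24, adjusted p = 0.00545). Those that fell were Sgcb, Atp2a2 and Itpr1 without tumors (-0.38, -0.33 and -0.21) and Rhoa, Rock2 and Atp2a2 with tumors (-0.37, -0.37 and -0.3). With the block Atp2a2 and Itpr1 no longer passed without tumors (adjusted p = 0.0786 and 0.0542). Atp2a2 pumps calcium into the stores, Itpr1 releases it, and Rhoa and Rock2 inhibit myosin phosphatase. Between the high calcium groups 12 were higher and 12 lower (20.6% and 27% of features), led by Tacr1 (1.18), a neurokinin receptor, Nkx2-3 (1.15) and Foxf1 (0.8), a forkhead factor of gut mesenchyme, on one side and Cav1 (-0.88), Aoc3 (-0.74), an amine oxidase of smooth muscle and fat (adjusted p = 0.0539 with the block), and Ednra (-0.61), an endothelin receptor, on the other. In the mean of both groups 29 rose and 1 fell, Atp2a2 (17.8% and 13.8% of features).

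Markers of other cell types moved beside the muscle genes, and their part in the muscle result was not tested. Their counts stand against 18.4% of all features higher and 17.3% lower without tumors, and 21% and 15.9% with tumors. Of 9 tested enteric neuron markers, 2 rose without tumors and 5 with tumors. The brightest, Gal and Tac1, differed by -0.29 and 0.35 without tumors (adjusted p = 0.457 and 0.0669). With tumors they differed by 0.73 and 1.3 (adjusted p = 0.0981 and 0.00042). Vip, the relaxing neuropeptide, had the largest rise of the list with tumors (0.65 and 1.66, adjusted p = 0.00215 and 0.00016). That value rests on 2 of the 3 hCA-Tumor arrays, as its spot on replicate 3 was left out as an outlier. The summed scaled signal of the neuron markers was 5.08 to 9.07 in hCA-Notumor, 9.3 to 12.4 in hCA-Tumor and 5.53 to 7.18 in DMH, over the 8 with a value on every array. The block left 1 and 2 of them higher. Neurons of the gut lie between and under the muscle layers. Of 8 pericyte markers, 4 rose and 1 fell without tumors and 6 rose with tumors (sums of 10.4 to 12.2, 14 to 14.6 and 9.65 to 11.1), and with the block 1 rose and 1 fell without tumors. Fibroblast and matrix genes split, with 4 of 10 lower and 0 higher without tumors and 6 higher and 1 lower with tumors (sums of 95.3 to 103, 162 to 172 and 113 to 123). Col3a1, a fibrillar collagen, differed by -0.46 ± 0.04 and 0.65 ± 0.04 (adjusted p = 0.000291 and 0.00013). Mesothelial markers, of the outer lining of the gut wall, were higher with tumors in 4 of 4 tested (sums of 0.706 to 0.761, 2.54 to 3.03 and 1.9 to 2.25). Without tumors Msln, Upk3b and Upk1b were lower, Msln and Upk3b also with the block, and Upk3b was not well above background on any hCA-Notumor array. Wt1, counted among the 4, was well above background on the hCA-Tumor arrays alone and passed the filter only through them. Its rise with tumors is thus only a bound of at least 2.7-fold over DMH, and it has no usable difference between the other groups.

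Fat moved against muscle. All 7 tested adipocyte markers were lower without tumors and 6 of 7 with tumors, with medians of -3.43 and -3.22 and summed signals of 4.69 to 8.13, 8.21 to 14.6 and 38.1 to 41.9 in hCA-Notumor, hCA-Tumor and DMH. DMH replicate 1 lay with the other DMH arrays in fat (median deviations of 2.25 to 2.33) and apart from them in muscle. Of 7 tested skeletal muscle markers, 2 rose and 1 fell without tumors and 4 rose with tumors (sums of 2.07 to 2.21, 3.51 to 3.99 and 1.93 to 2.17). Among them Acta1, skeletal actin and the brightest of the list, differed by -0.2 ± 0.06 and 0.86 ± 0.06 (adjusted p = 0.0337 and 0.00013). Without tumors it went against its list, in which 6 of 7 had a positive difference (median 0.44). The epithelial sums were alike, at 1370 to 1520, 1380 to 1520 and 1290 to 1470, and the medians over 11 epithelial genes were 0.12 and 0.09, with 2 and 3 genes higher and 0 lower.

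**Figure D4:**
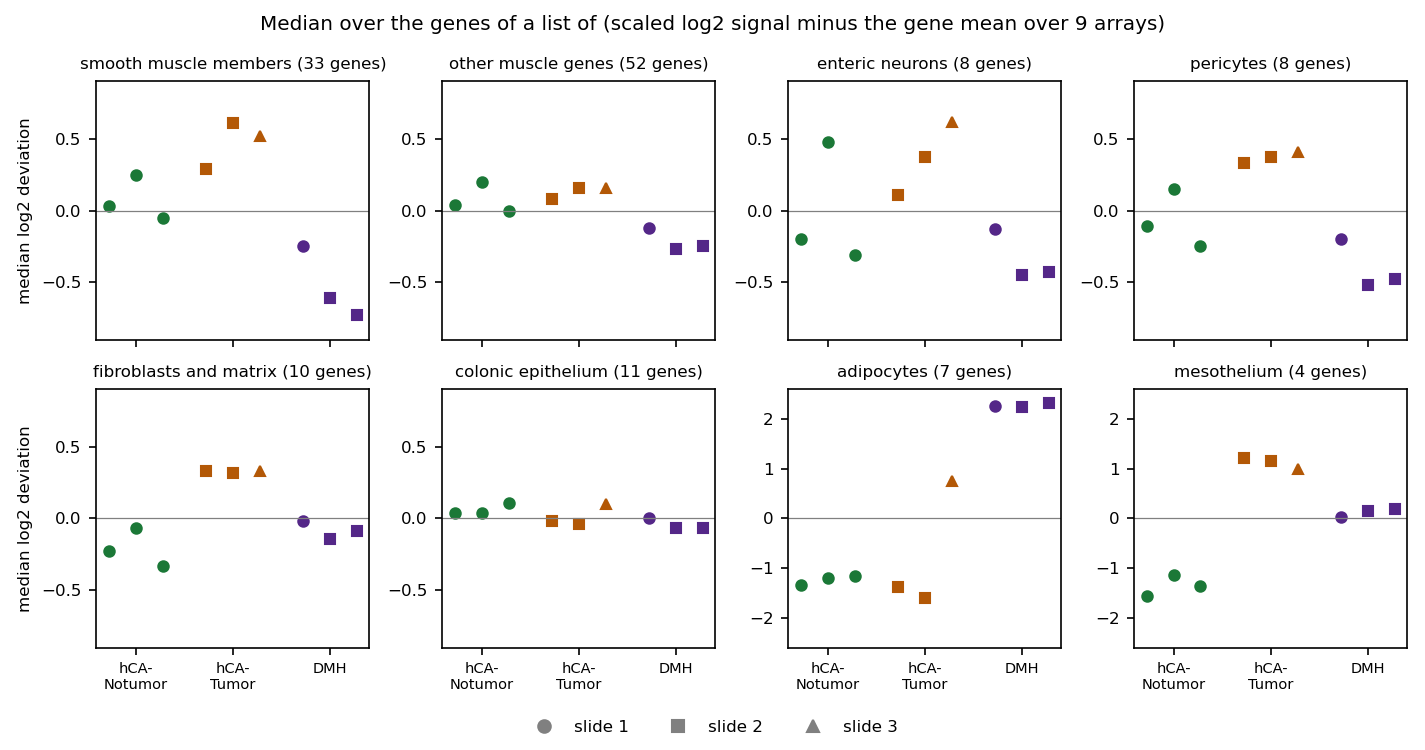
Median over each gene list of the scaled log2 signal minus the gene's mean over 9 arrays, for every array, by group and slide (marker shape); the adipocyte and mesothelium panels have a wider vertical scale. Smooth muscle runs from -0.73 on a DMH array to 0.61 on an hCA-Tumor array, adipocyte genes are highest in DMH, and colonic epithelium stays between -0.07 and 0.11.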

How the data were processed

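Total RNA of 9 mucosal samples was labelled with Cy3, 1 array per sample. The deposited scanner files hold intensity values per probe, background-subtracted by Agilent Feature Extraction 10.5.1.1 per the file headers and the submitters' processing notes. The authors' deposited table holds log2 values, with column medians of 2.36 to 2.8, and served as an alternative. Its values followed log2 processed signal minus the array's median (r of at least 0.999995), at an offset of 0.081 to 0.115 by array. Per the file headers the array annotation is of build mm9.

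Here log2 of each deposited intensity minus the array's 75th percentile (572.5 to 819.2) was used. Outlier spots, touching 188 probes, were left out, and 27207 probes well above background on all 3 arrays of a group were kept. RefSeq names of assembly GRCm38.p6 were matched through transcript accessions (25097 of 41174 probes, 17305 symbols), and the brightest probe stood for a gene. The fit, checked on simulated data, used limma 3.58.1 (lmFit and eBayes, R 4.3.3) over all 9 arrays, and p-values were adjusted per contrast by Benjamini-Hochberg, with a threshold of 0.05. Slide was read from the barcode in the file headers. Alternatives were normexp (offset 50, on median spot signals), quantile and median scaling, no or stricter filters, mean probes, slide and replicate blocks, other fits and left-out arrays.

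The members and lists were chosen with earlier results of these data known. Named are all members, up to 3 rises and 3 falls of the other muscle genes per contrast, and the brightest 2 genes of a cell type list, of which only some are printed; Vip was added after its values were seen.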

Additional observations from a re-analysis of the deposited data

Results flagged for a closer look

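Set directly against each other (hCA-Notumor minus hCA-Tumor, log2, n = 3 arrays per group), the high calcium groups differed in 11 of 33 smooth muscle genes. Across the whole array 20.6% of features passed upward and 27% downward. The share of the list that passed was thus not above this background. Both groups ate 3% calcium, so these differences do not measure an effect of the diet. No slide held both groups, so tumor status and slide cannot be told apart. Nexn differed by -1.26, Tpm2 by -0.85, Synm by -0.69, Cnn1 by -0.68, Csrp1 by -0.63, Pdlim3 by -0.59, Pgm5 by -0.58, Hspb6 by -0.5, Pdlim7 by -0.47 and Smtn by -0.35. Ldb3 differed by 0.56 in the other direction. The slide block links these groups through the DMH arrays alone. In that fit Ldb3, Pdlim3 and Pdlim7 did not pass (adjusted p = 0.0697, 0.0643 and 0.061), and the other 8 did. Calls of Nexn, Tpm2, Csrp1, Pgm5, Pdlim7 and Ldb3 held with each array left out in turn. Those of Synm, Hspb6, Pdlim3, Cnn1 and Smtn did not, with adjusted p of up to 0.127, 0.145, 0.104, 0.0905 and 0.0503.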

How the results depend on the processing

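No difference of a member that passed changed its sign under any alternative run. For hCA-Notumor against DMH, 8 members passed with median scaling, 9 on the authors' deposited table, 9 with the slide as a block and 7 within a slide, against 20, with medians of 0.34 and 0.34 in the last 2, against 0.66; both set hCA-Notumor against DMH replicate 1 alone and so give 1 contrast. For hCA-Notumor against hCA-Tumor, 7 passed without the filter on dim probes, 18 with the slide as a block (median -0.83), 17 with only the compared groups in the fit and 21 with array weights, against 11. With each array left out in turn, counts ran from 13 to 28 and medians from 0.51 to 0.78 for hCA-Notumor against DMH, 26 to 29 and 0.88 to 1.19 for hCA-Tumor against DMH, 6 to 18 and -0.5 to -0.33 between them, and 23 to 29 and 0.72 to 1.01 for the mean. Without both DMH replicate 1 and hCA-Tumor replicate 3, a setting chosen after seeing the data, 31, 29, 17 and 30 passed. Same-numbered arrays did not deviate together (r of -0.57 to 0.22 in 9 pairs, -0.46 to 0.57 in 18 pairs of other numbers). The slides of these arrays differ too, so this does not exclude that numbers pair the samples. With the replicate block 19, 26, 10 and 26 passed. Counts for hCA-Tumor against DMH and for the mean stayed within 1.5 times the main count under every setting run. Signal over background limits Chrm2, Chrm3, Ppp1r12b and Tacr2. With normexp correction Myocd, Kcnmb1, Jph2 and Cryab missed the threshold without tumors (0.5, 0.45, 0.5 and 0.56, adjusted p = 0.101, 0.0623, 0.0549 and 0.0609).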

Other observations

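Markers of other cell types that lie among the muscle are given here against all features, of which 18.4% were higher and 17.3% lower without tumors and 21% and 15.9% with tumors. Of 4 tested genes marking interstitial cells of Cajal, the pacemakers of gut muscle, 2 rose in hCA-Notumor and 0 in hCA-Tumor against DMH. Ano1, their chloride channel, rose by 0.62 ± 0.11 without tumors (adjusted p = 0.00398), or 0.73 with the slide as a block, and differed by 0.18 ± 0.11 with tumors (adjusted p = 0.24). Its signals were 2.53 to 2.78 without tumors, 2.03 to 2.35 with tumors and 1.94 to 2.12 in DMH. Of 5 tested enteric glia markers, 1 rose without tumors, and 2 rose and 1 fell with tumors. Of 9 endothelial markers, 1 was higher and 1 lower in each comparison with DMH, with medians of -0.03 and -0.11. The one lower without tumors was Cdh5, an endothelial cadherin, by -0.87 ± 0.06 (adjusted p = 0.000152), or -0.84 with the slide as a block (adjusted p = 0.00322), on 2 of the 3 hCA-Notumor arrays, as its spot on replicate 2 was left out as an outlier. Of 7 tested leukocyte markers, 0 rose in both comparisons, 1 fell without tumors and 4 fell with tumors, with medians of -0.09 and -0.39. Itgam, an integrin of myeloid cells, and Cd79a, a part of the B cell receptor, differed by -0.98 and -0.9 with tumors (adjusted p = 0.000254 and 0.000218). Cdh5, Itgam and Cd79a were named after their values were seen.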
